A study of Mus musculus with 12 samples.

Results

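The tumour suppressor p53 and the machinery of apoptosis were examined through 48 genes, chosen by symbol among the 47642 genes of a table of mouse kidney epithelial cells. The genes cover the p53 family and its inhibitors, transcriptional targets of p53, the BCL2 family, caspases, death receptors and the inhibitor of apoptosis proteins. The cells were mIMCD3, a line from the inner medullary collecting duct of mice that carry the early region of SV40, a transgene shared by every library. RNA was sequenced from wild-type cells (Wt), from 1 clone without Pkd1 (Pkd1-/-) and from 1 clone without Pkd2 (Pkd2-/-), genes whose loss causes polycystic kidney disease, with 4 libraries per genotype. The libraries of a genotype were separate culture dishes taken 4 days after confluency, so that p-values measure the spread between dishes and a clone cannot be told apart from its genotype.

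p53 is a transcription factor that is kept low by the ubiquitin ligase Mdm2 and accumulates after DNA damage and other stress. It then activates genes that halt the cell cycle, repair DNA or start apoptosis, among them the BH3-only proteins Bbc3 (PUMA) and Pmaip1 (NOXA), which relieve the block that Bcl2-like proteins place on Bax and Bak1. Permeabilized mitochondria release factors that assemble with Apaf1 and activate caspases. The large T antigen of SV40 binds p53 and inactivates it. The level and activity of the p53 and T antigen proteins were not analysed here.

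The deposited values were normalized counts rounded to whole numbers, and summed to between 25966273 and 28027792 per library. From the step size of the low values, 23188147 to 30318690 reads per library were estimated to lie on genes. Libraries of 1 genotype correlated across genes at r between 0.985 and 0.989, and libraries of different genotypes at 0.955 to 0.974. Pkd1 itself spanned 682 to 883 normalized counts in Wt, 30 to 49 in Pkd1-/- and 1057 to 1492 in Pkd2-/-. Pkd2 spanned 3438 to 4467, 2545 to 2858 and 3855 to 4135, since the deletion in the Pkd2-/- clone leaves most of its exons, and its level does not check that genotype. The 6 epithelial markers and 6 of 11 collecting duct markers averaged 10 normalized counts or more, while Aqp2, Avpr2 and Calb1 held at most 3 in every library. Of the markers of other cell types, only Lrp2, Cd68 and Col3a1 reached a mean of 10. The summed proximal tubule list, nearly all of it Lrp2, spanned 480 to 557 in Wt, 33 to 71 in Pkd1-/- and 744 to 1222 in Pkd2-/-. The summed fibroblast list spanned 7 to 15 in Wt, 66 to 83 in Pkd1-/- and 2 to 73 in Pkd2-/-. In it Col3a1 averaged 4.75, 66.25 and 14.5, and Col1a1 4.25, 5.25 and 13.25. The part of the proximal tubule or fibroblast list in the results was not tested.

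The question for each knockout was which of the 48 genes differed from Wt and in which direction. Of the 48, 46 passed the minimum mean of 1 normalized count. Trp73, a p53 relative, and Casp1, the caspase of the inflammasome, held at most 1 and 2 normalized counts in any library and were not tested. A gene was called at an adjusted p under 0.05 in limma on log2(normalized count + 1), adjusted over all 18552 genes tested. Every log2 fold change below is on that scale, which understates changes of genes with few counts. A second count also required a log2 fold change of 1 or more, up or down. Of the 48 members, 29 averaged 1000 normalized counts or more over all libraries and 8, Trp73 and Casp1 included, averaged under 100.

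In Pkd1-/- cells 27 of the 46 members (58.7%) were called, 7 higher and 20 lower than Wt, where 27.1% of all tested genes were called, 13.6% higher and 13.5% lower. The median log2 fold change of the members was -0.15 and that of all tested genes 0.01. With the fold threshold 4 members remained, Trp63 and Eda2r higher and Bik and Casp4 lower, or 8.70% of the members against 6.24% of all genes. Eda2r passed the minimum mean only through Pkd1-/-, and without it 26 members were called, 6 of them higher, and 3 passed the fold threshold. The ranges of the Wt and Pkd1-/- libraries did not overlap for 22 members, and for 27.1% of all genes.

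In Pkd2-/- cells 28 members (60.9%) were called, 10 higher and 18 lower, where the shares of all tested genes were 42.3%, 20.0% and 22.3%. The median log2 fold change was -0.09 for the members and -0.01 for all genes. The 8 members past the fold threshold, 17.4% against 9.62% of all genes, were lower than Wt: Trp63, Bcl2, Pmaip1, Bik, Bmf, Casp4, Casp6 and Tnfsf10. The libraries did not overlap for 24 members and for 37.2% of all genes. Between the mutants 28 members (60.9%) were called, 13 higher and 15 lower in Pkd2-/-, against 46.3%, 21.9% and 24.3% of all genes, and 4 of them passed the fold threshold (8.70% against 11.8%). Without Eda2r these were 27 and 3. The libraries of the mutants did not overlap for 25 members and for 41.8% of all genes.

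The members were mostly well expressed, and well expressed genes were called more often. Among genes that averaged 100 normalized counts or more, a level chosen after the values were seen, 55.0% of 40 members were called in Pkd1-/- against 37.0% of all such genes. In Pkd2-/- the shares were 60.0% and 59.3%, and between the mutants 60.0% and 63.2%, so that the counts of members called in Pkd2-/- and between the mutants were close to the background at that level of expression. Past the fold threshold these shares were 0 of 40 members in Pkd1-/- against 2.84%, 10.0% in Pkd2-/- against 5.68%, and 5.00% between the mutants against 6.97%. The comparisons of each mutant with Wt share the Wt libraries, and values for them are given side by side.

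**Figure D1:**
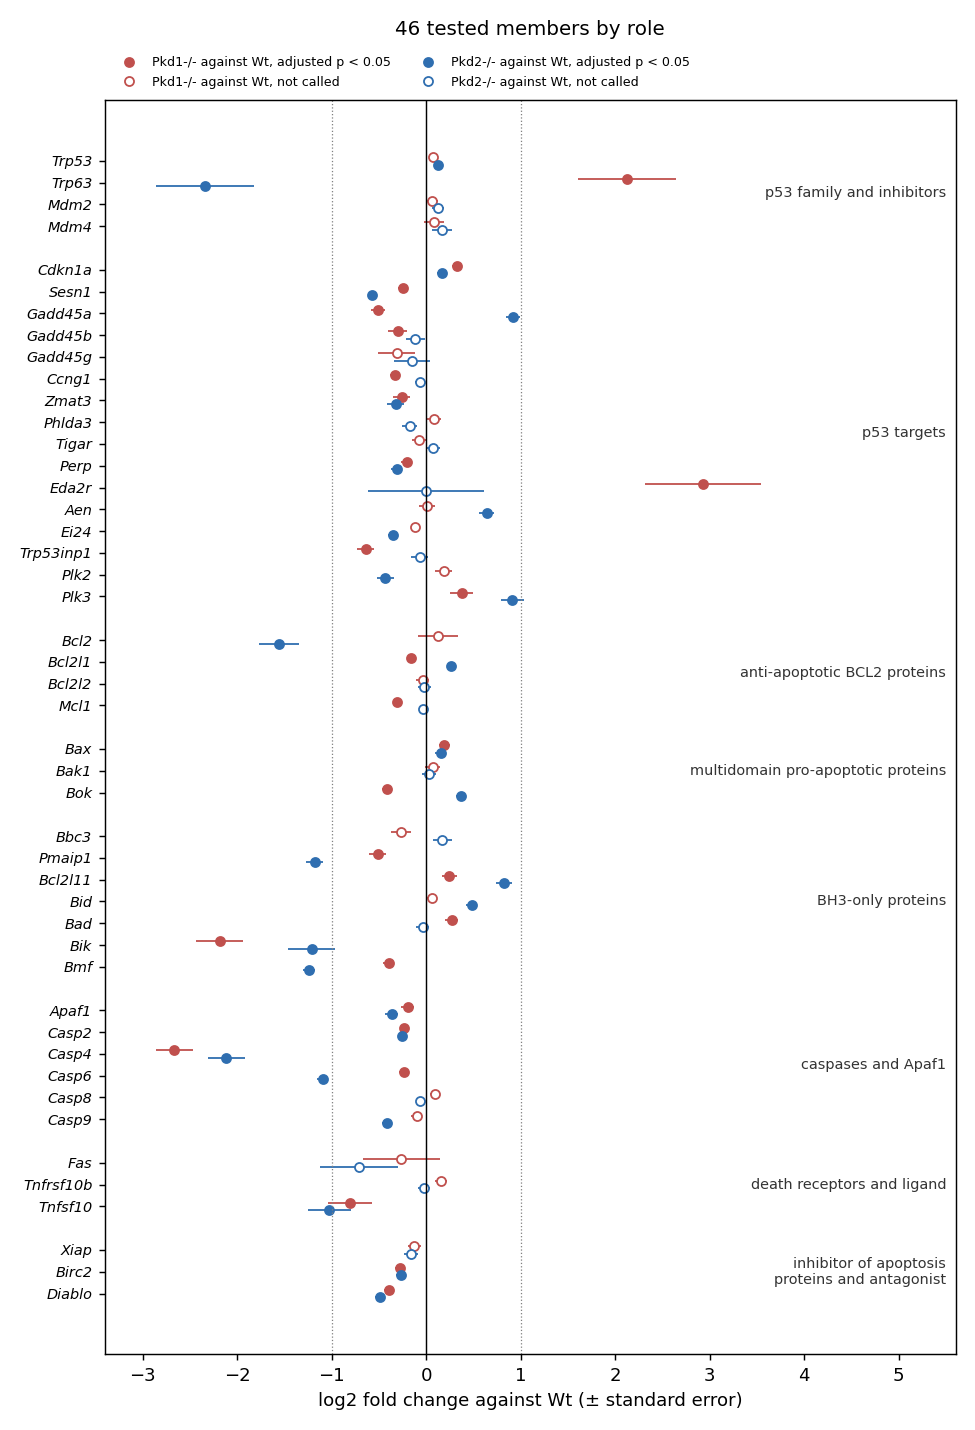
Log2 fold change against Wt (horizontal axis, with its standard error) of the 46 tested members, grouped by role, in Pkd1-/- (red) and Pkd2-/- (blue). Filled points were called at an adjusted p under 0.05, and dotted lines mark a log2 fold change of 1 in either direction. Most members lay within these lines, and 20 of the 27 calls in Pkd1-/- and 18 of the 28 in Pkd2-/- lay below 0.

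The core of the pathway differed little. Trp53, which encodes p53, held 7337, 7850, 7538 and 7464 normalized counts in the Wt libraries. It held 8277, 7921, 7889 and 7631 in Pkd1-/-, and 8715, 8227, 8303 and 7771 in Pkd2-/-. The highest Wt library lay above the lowest library of each mutant, so that the ranges overlapped. The log2 fold change was 0.07 (95% interval -0.02 to 0.17, adjusted p = 0.275 in limma) in Pkd1-/- and 0.13 (standard error 0.04, adjusted p = 0.0266 in limma) in Pkd2-/-. The Pkd2-/- call was lost without Wt replicate 1, 3 or 4 or without Pkd2-/- replicate 1, 2 or 3, with adjusted p up to 0.0978 in limma, and after rescaling to a common upper quartile (adjusted p = 0.117).

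Mdm2, both a target of p53 and its main inhibitor, held 2612, 2571, 2389 and 2705 normalized counts in Wt. It held 2540, 2651, 2692 and 2824 in Pkd1-/- and 2558, 2729, 2725 and 3213 in Pkd2-/-. All 3 ranges overlapped, and the log2 differences from Wt of 0.06 (95% interval -0.07 to 0.19) and 0.12 (95% interval -0.01 to 0.26) did not pass the test (adjusted p = 0.549 and 0.128 in limma). Without Pkd2-/- replicate 1, Mdm2 was called higher in Pkd2-/- (0.17, adjusted p = 0.0486 in limma). Mdm4, a relative of Mdm2 that also restrains p53, gave 0.08 (adjusted p = 0.627 in limma) and 0.17 (adjusted p = 0.234 in limma).

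Trp63, which encodes the epithelial p53 relative p63, differed most between the mutants of the named members, at a low level. The Wt libraries held 11, 3, 10 and 24 normalized counts, the Pkd1-/- libraries 34, 74, 35 and 49 and the Pkd2-/- libraries 1, 0, 1 and 4. Every Pkd1-/- library lay above every library of the other genotypes, while Wt and Pkd2-/- overlapped between 3 and 4. The log2 fold change of Trp63 was 2.12 in Pkd1-/- (standard error 0.52, adjusted p = 0.00433 in limma) and -2.34 in Pkd2-/- (standard error 0.52, adjusted p = 0.00112 in limma). The log2 difference between the mutants was -4.46 (standard error 0.52, adjusted p = 8.27e-07 in limma). With so few counts in Pkd2-/- these sizes depended on the pseudocount, and with 5 in place of 1 they were 1.73, -1.28 and -3.001, each still called.

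Cdkn1a (p21), the cyclin-dependent kinase inhibitor through which p53 arrests the cell cycle, held 6405, 7289, 7260 and 6677 normalized counts in Wt. It held 8809, 8471, 8891 and 8379 in Pkd1-/- and 7636, 7243, 8420 and 7700 in Pkd2-/-. The Pkd1-/- libraries lay above all Wt libraries, and the Pkd2-/- libraries overlapped with both other genotypes. Cdkn1a rose 1.25-fold in Pkd1-/- (log2 fold change 0.32, standard error 0.05, adjusted p = 0.000114 in limma) and 1.12-fold in Pkd2-/- (0.17, adjusted p = 0.0165 in limma). The Pkd2-/- call was lost without Wt replicate 1 (adjusted p = 0.0633), without Pkd2-/- replicate 3 (adjusted p = 0.0666) and after rescaling to the upper quartile (adjusted p = 0.0619, all in limma). Between the mutants the log2 difference of -0.16 (adjusted p = 0.0198 in limma) was lost without Pkd1-/- replicate 3 (0.0609) or Pkd2-/- replicate 2 (0.0801). An unclassified transcript on the opposite strand shares 7.68% of the exon bases of Cdkn1a, and whether reads were counted by strand is not given in the sources used here.

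**Figure D2:**
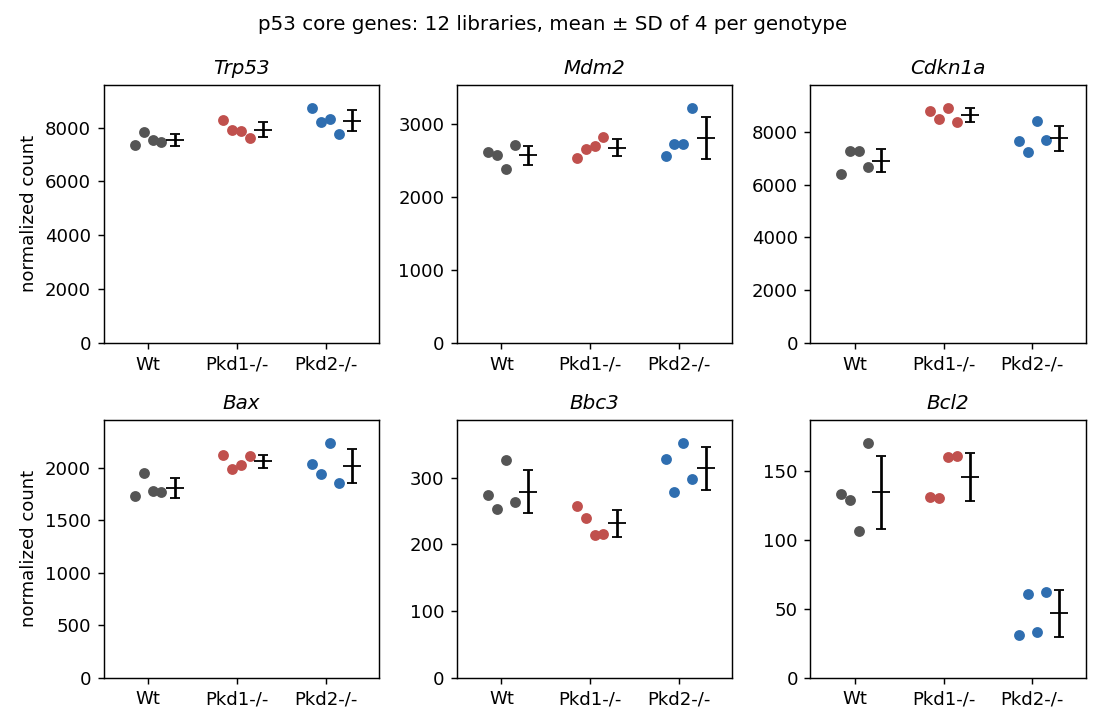
Normalized counts (vertical axes, from 0) of Trp53, Mdm2, Cdkn1a, Bax, Bbc3 and Bcl2 in the 12 libraries, with points in replicate order and bars for the mean and SD of the 4 libraries of a genotype. Cdkn1a was 6405 to 7289 in Wt and 8379 to 8891 in Pkd1-/-, and Bcl2 was 31 to 62 in Pkd2-/- against 106 or more in every other library.

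p53 binds DNA at pairs of a 10-base element, the p53 half-site, and the promoters of the members were searched for it because the members include p53 targets. RefSeq promoters of GRCm38.p6, 250 bases before to 50 bases after each start, were matched by symbol for 41 of the 48 members. The half-site consensus reads the same on both strands, so that a single search covers both. It occurred in 11 of these members (26.8%), and in 9.55% of 27025 genes and 8.36% of 32851 promoters of the same length. A pair of half-sites with a spacer of at most 13 bases occurred in 1 member, Cdkn1a, and in 20 genes (0.0740%). The sequences of Cdkn1a, of Mdm2 and Bax as regulators of p53 and of apoptosis, and of Gadd45a, Sesn1 and Bmf as members whose counts differed between the genotypes are shown 5′ to 3′ with each half-site in capitals.
Cdkn1a: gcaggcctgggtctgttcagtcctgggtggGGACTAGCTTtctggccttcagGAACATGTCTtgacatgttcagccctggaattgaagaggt
Mdm2: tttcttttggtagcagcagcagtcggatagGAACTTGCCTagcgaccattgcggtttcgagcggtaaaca
Bax: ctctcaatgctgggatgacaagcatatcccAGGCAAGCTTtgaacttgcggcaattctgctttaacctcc
Gadd45a: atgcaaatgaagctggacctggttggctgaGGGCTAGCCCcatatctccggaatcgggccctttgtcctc
Sesn1: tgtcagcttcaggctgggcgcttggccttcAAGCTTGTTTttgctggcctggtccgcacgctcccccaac
Bmf: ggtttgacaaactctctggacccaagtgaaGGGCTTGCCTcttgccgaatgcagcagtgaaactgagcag

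The Cdkn1a window (GRCm38 chr17:29090876-29090967, plus strand) lies before the more upstream of 2 RefSeq starts, which are 2790 bases apart. Its exact half-sites begin 73 and 51 bases before that upstream start, with 12 bases between them. The bases tgacatgttc, which directly follow GAACATGTCT without a spacer, differ from the consensus only at their leading t. The search took exact matches and left them in lower case. Which of these stretches p53 binds as a pair was not tested. The Mdm2 window is chr10:117710905-117710974 (minus strand), that of Bax chr7:45467060-45467129 (minus strand) and that of Gadd45a chr6:67037408-67037477 (minus strand). The Sesn1 window is chr10:41887236-41887305 (plus strand), at the more downstream of 2 RefSeq starts that lie 76865 bases apart. That of Bmf is chr2:118544761-118544830 (minus strand), at the most downstream of 3 starts that span 5099 bases. The other members with a half-site were Trp53, Ccng1, Aen, Ei24 and Birc2. Of the 11, 2 were called higher and 5 lower in Pkd1-/-, and 5 higher and 4 lower in Pkd2-/-. Between the mutants 3 were higher and 4 lower in Pkd2-/-. Of all tested genes 27.1%, 42.3% and 46.3% were called in these comparisons, and of those that averaged 100 or more 37.0%, 59.3% and 63.2%. A match describes the letters of these windows and not binding, and known p53 elements further from a start or within introns fall outside them.

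Of the 16 p53 targets of arrest, repair and metabolism, 10 were called in Pkd1-/- (3 higher, 7 lower) and 9 in Pkd2-/- (4 higher, 5 lower), with median log2 fold changes of -0.16 and -0.09. Between the mutants 11 were called, 5 higher and 6 lower in Pkd2-/-. Beside these counts stand 27.1%, 42.3% and 46.3% of all tested genes, and 37.0%, 59.3% and 63.2% of genes that averaged 100 or more. The 9 of 16 in Pkd2-/- (56.2%) were near the latter share. Eda2r, which passed the minimum mean only through Pkd1-/-, was among the 3 higher in Pkd1-/- and the 6 lower between the mutants. It had to differ in order to be tested, so that its calls are not a result.

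Gadd45a, a stress sensor that takes part in DNA repair and growth arrest, was called in opposite directions in the mutants. Its Wt libraries held 680, 742, 685 and 758 normalized counts, its Pkd1-/- libraries 482, 478, 536 and 514 and its Pkd2-/- libraries 1192, 1435, 1329 and 1475. The genotypes did not overlap, and Pkd2-/- was the highest. Gadd45a fell by 0.51 on the log2 scale in Pkd1-/- (standard error 0.07, adjusted p = 1.93e-05 in limma) and rose by 0.92 in Pkd2-/- (standard error 0.07, adjusted p = 4.51e-09 in limma). The log2 difference between the mutants was 1.43 (standard error 0.07, adjusted p = 5.83e-12 in limma), a 2.69-fold higher level in Pkd2-/-. Its promoter window carries the half-site 40 bases before the start, and E230016M11Rik on the opposite strand shares 19.1% of its exon bases. Of its paralogs, Gadd45b gave -0.30 in Pkd1-/- (adjusted p = 0.0309 in limma) and -0.12 in Pkd2-/- (adjusted p = 0.39 in limma), and Gadd45g was not called in any comparison, with log2 fold changes of -0.31 and -0.15.

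Trp53inp1, which promotes p53-dependent apoptosis and autophagy, held 786, 619, 666 and 852 normalized counts in Wt. It held 478, 448, 453 and 482 in Pkd1-/- and 619, 750, 674 and 732 in Pkd2-/-. Pkd1-/- libraries lay below all others, and Wt and Pkd2-/- overlapped. It fell by 0.64 on the log2 scale in Pkd1-/- (standard error 0.09, adjusted p = 2.22e-05 in limma), gave -0.07 in Pkd2-/- (adjusted p = 0.596 in limma), and was 0.57 higher in Pkd2-/- than in Pkd1-/- (adjusted p = 3.21e-05 in limma). Ccng1 (cyclin G1) had a like order, with -0.33 in Pkd1-/- (adjusted p = 3.76e-05 in limma) and -0.07 in Pkd2-/- (adjusted p = 0.309 in limma).

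Sesn1, an antioxidant and mTORC1 inhibitor, spanned 2801 to 3062 normalized counts in Wt, 2388 to 2543 in Pkd1-/- and 1946 to 2023 in Pkd2-/-, without overlap. It fell by 0.25 and 0.57 on the log2 scale (adjusted p = 0.000309 and 6.37e-09 in limma), and the mutants differed by -0.32 (adjusted p = 9.19e-06 in limma). Perp, a membrane protein of desmosomes and of p53-dependent apoptosis, fell by 0.21 and 0.31 (adjusted p = 0.0108 and 0.000187 in limma). Zmat3, an RNA-binding p53 target, fell by 0.26 and 0.32 (adjusted p = 0.0403 and 0.00726 in limma). Ei24, of the endoplasmic reticulum and autophagy, gave -0.11 in Pkd1-/- (adjusted p = 0.111 in limma) and fell by 0.35 in Pkd2-/- (adjusted p = 1.66e-05 in limma).

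Other targets were higher. Plk3, a kinase of the stress response, rose by 0.38 and 0.91 on the log2 scale (adjusted p = 0.0267 and 5.77e-06 in limma), and the mutants differed by 0.53 (adjusted p = 0.00121 in limma). The related kinase Plk2 gave 0.19 in Pkd1-/- (adjusted p = 0.145 in limma) and fell by 0.43 in Pkd2-/- (adjusted p = 0.000688 in limma). Aen, a nuclease of apoptosis, spanned 431 to 484 normalized counts in Wt, 416 to 525 in Pkd1-/- and 643 to 799 in Pkd2-/-, and rose by 0.64 in Pkd2-/- (adjusted p = 3.50e-06 in limma). Phlda3, an inhibitor of AKT signalling, was called only between the mutants (-0.26, adjusted p = 0.0101 in limma), and Tigar, a regulator of glycolysis, was not called in any comparison. The Pkd1-/- calls of Gadd45b, Zmat3 and Plk3 were each lost without 1 or other single library, among them Pkd1-/- replicates 2 and 3, with adjusted p up to 0.101, 0.147 and 0.0906 in limma.

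Eda2r, a receptor of the tumour necrosis factor family, passed the filter on low values only through Pkd1-/-. The Wt libraries held 0, 0, 2 and 0 normalized counts, the Pkd1-/- libraries 14, 2, 15 and 13 and the Pkd2-/- libraries 2, 0, 0 and 0. Pkd1-/- replicate 2 lay within the range of the other genotypes. The mean of 11 was at least 3.67-fold higher than a floor of 3 counts per library, which covers counting error only, in each of the other genotypes. Since Eda2r had to differ in order to be tested, no p-value is given for it.

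**Figure D3:**
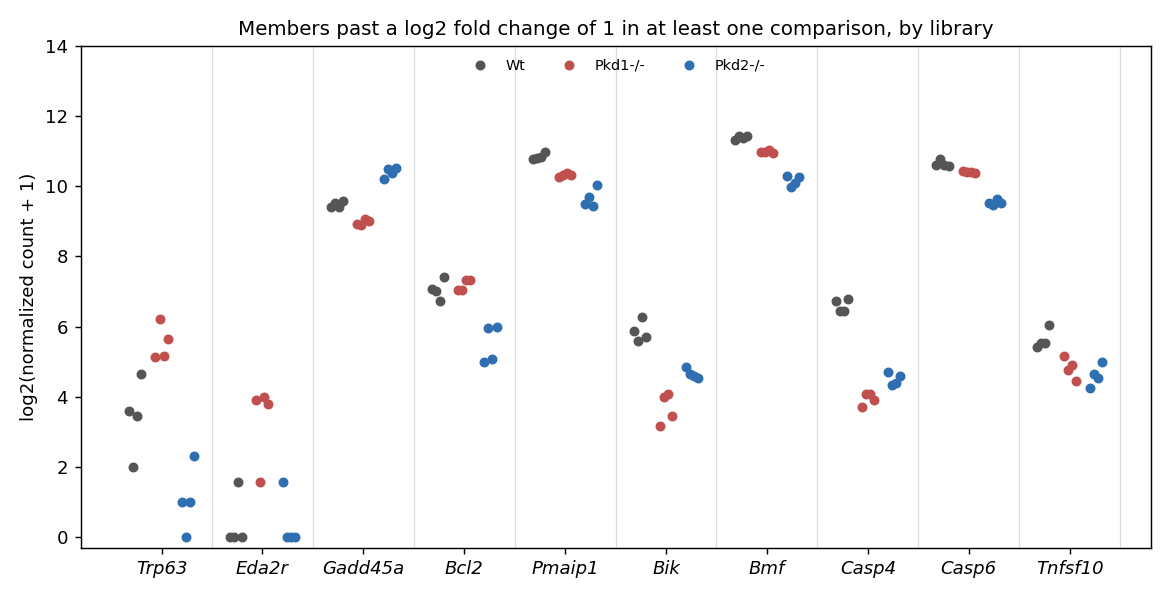
Level of the 10 members that passed a log2 fold change of 1 in at least 1 comparison, as log2(normalized count + 1) on the vertical axis, with 1 point per library (grey, Wt; red, Pkd1-/-; blue, Pkd2-/-). Gadd45a was highest in Pkd2-/- and Trp63 in Pkd1-/-, whereas Bik and Casp4 were lowest in Pkd1-/- and Bmf, Pmaip1, Casp6 and Bcl2 in Pkd2-/-.

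The balance of the BCL2 family was set out per length, as the mean normalized count per kb of exon. Among the anti-apoptotic members in Wt, Mcl1 stood at 5133 per kb, Bcl2l1 (BCL-XL) at 866, Bcl2l2 (BCL-W) at 99.0 and Bcl2 at 14.7. Bcl2 was thus the scarcest of them at the RNA level in these cells, and Mcl1 the most abundant. Of the pore-forming members in Wt, Bok stood at 1546 per kb, Bax at 1148 and Bak1 at 498. The BH3-only members in Wt ranged from 672 per kb for Pmaip1 and 629 for Bad to 36.6 for Bik.

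Bcl2, the founding anti-apoptotic member of the family, was called lower in Pkd2-/-. The Wt libraries held 133, 129, 106 and 170 normalized counts, the Pkd1-/- libraries 131, 130, 160 and 161 and the Pkd2-/- libraries 31, 61, 33 and 62. The Pkd2-/- libraries lay below all others, and Wt and Pkd1-/- overlapped. Bcl2 fell 2.94-fold in Pkd2-/- (log2 fold change -1.56, standard error 0.21, adjusted p = 7.45e-06 in limma) and gave 0.13 in Pkd1-/- (adjusted p = 0.731 in limma). Between the mutants the log2 difference was -1.68 (standard error 0.21, adjusted p = 2.27e-06 in limma). An antisense gene, D630008O14Rik, shares 6.09% of its exon bases.

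Bcl2l1, an inhibitor of Bax and Bak1, spanned 3840 to 4106 normalized counts in Wt, 3398 to 3670 in Pkd1-/- and 4728 to 4786 in Pkd2-/-, without overlap. It fell by 0.17 on the log2 scale in Pkd1-/- (adjusted p = 0.00437 in limma) and rose by 0.26 in Pkd2-/- (adjusted p = 3.36e-05 in limma), and the mutants differed by 0.43 (adjusted p = 5.85e-08 in limma). Mcl1, a short-lived inhibitor, spanned 17094 to 18291, 14093 to 14244 and 16382 to 18359 normalized counts. It fell by 0.31 in Pkd1-/- (adjusted p = 2.17e-05 in limma) and gave -0.04 in Pkd2-/- (adjusted p = 0.533 in limma). Bcl2l2 was not called in any comparison, with log2 fold changes of -0.04 and -0.02.

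**Figure D4:**
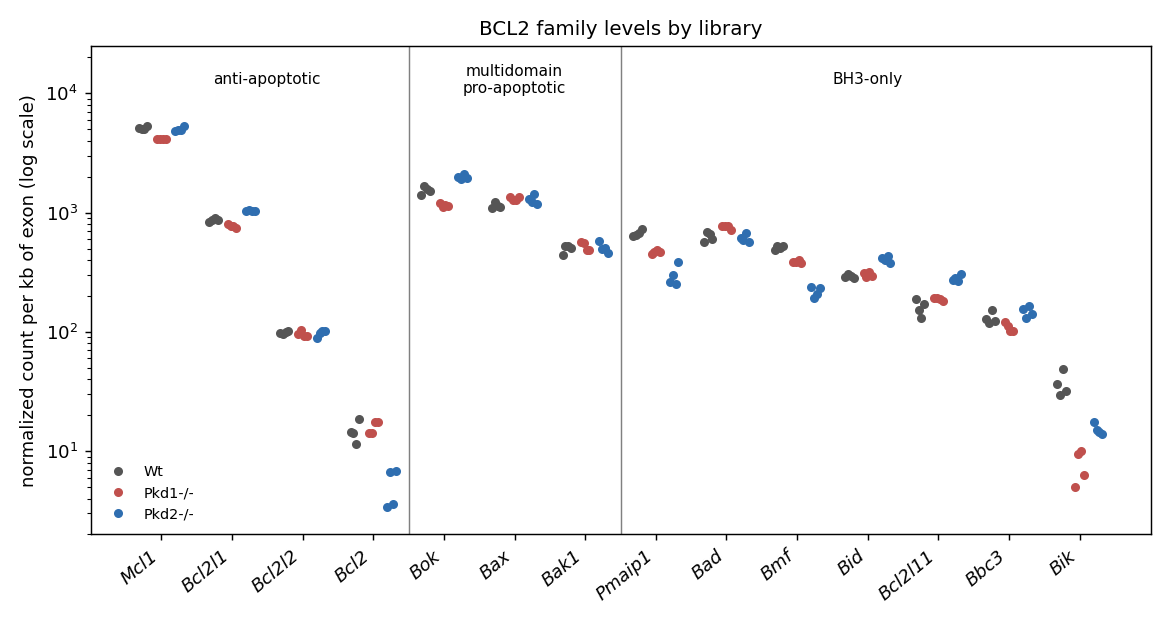
Normalized counts per kb of exon (vertical axis, log scale) of 14 BCL2 family members in each library (grey, Wt; red, Pkd1-/-; blue, Pkd2-/-), in the classes anti-apoptotic, multidomain pro-apoptotic and BH3-only. In Wt, Mcl1 stood at 5133 per kb and Bcl2 at 14.7, and Bcl2 was lower in Pkd2-/- than in every other library.

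Bax, the pore-forming effector and p53 target, held 1733, 1951, 1782 and 1774 normalized counts in Wt. It held 2125, 1994, 2028 and 2111 in Pkd1-/- and 2038, 1940, 2237 and 1855 in Pkd2-/-. The Pkd1-/- libraries lay above Wt and the Pkd2-/- libraries overlapped with both. The log2 fold changes were 0.19 (standard error 0.06, adjusted p = 0.019 in limma) and 0.15 (standard error 0.06, adjusted p = 0.0392 in limma). The Pkd1-/- call was lost without Wt replicate 1 (adjusted p = 0.0579) or Pkd1-/- replicate 4 (adjusted p = 0.052, both in limma). The Pkd2-/- call was lost without Wt replicate 1, 3 or 4, Pkd1-/- replicate 3 or Pkd2-/- replicate 1 or 3, with adjusted p up to 0.153 in limma. This call was also lost after rescaling to the upper quartile (adjusted p = 0.119), without the filter on low values (0.0503) and with only the 2 genotypes compared (0.0777, all in limma). Gm45808, on the same strand, shares 12.2% of the exon bases of Bax.

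Bok, another pore-forming relative, showed a larger difference than Bax and in opposite directions. It spanned 2592 to 3061 normalized counts in Wt, 2047 to 2220 in Pkd1-/- and 3511 to 3907 in Pkd2-/-. The genotypes did not overlap, and Bok fell by 0.41 on the log2 scale in Pkd1-/- (adjusted p = 9.05e-06 in limma) and rose by 0.36 in Pkd2-/- (adjusted p = 2.01e-05 in limma). The mutants differed by 0.78 (standard error 0.05, adjusted p = 7.29e-10 in limma). Bak1 was not called in any comparison, with log2 fold changes of 0.07 and 0.03.

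Of the 7 BH3-only members, which sense damage and set off apoptosis, 5 were called in Pkd1-/- (2 higher, 3 lower) and 5 in Pkd2-/- (2 higher, 3 lower), or 71.4% each against 27.1% and 42.3% of all tested genes and 37.0% and 59.3% of those that averaged 100 or more. All 7 were called between the mutants, 4 higher and 3 lower in Pkd2-/-, where 46.3% of all tested genes and 63.2% of those that averaged 100 or more were called. The libraries of the mutants did not overlap for any of the 7, nor for 41.8% of all tested genes.

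Bbc3, a BH3-only target of p53, held 274, 253, 326 and 264 normalized counts in Wt. It held 257, 240, 214 and 215 in Pkd1-/- and 328, 278, 352 and 298 in Pkd2-/-. Wt overlapped with each mutant, while the mutants did not overlap. The log2 differences from Wt of -0.27 in Pkd1-/- (95% interval -0.48 to -0.05, adjusted p = 0.0612 in limma) and 0.17 in Pkd2-/- (95% interval -0.04 to 0.38, adjusted p = 0.203 in limma) did not pass, and the mutants differed by 0.44 (standard error 0.10, adjusted p = 0.00157 in limma). The Pkd1-/- difference passed without Wt replicate 2 (adjusted p = 0.045) or Pkd1-/- replicate 1 (adjusted p = 0.0374, both in limma).

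Pmaip1, another BH3-only target of p53, held 1739, 1773, 1828 and 2008 normalized counts in Wt. The Pkd1-/- libraries held 1240, 1276, 1339 and 1277, and the Pkd2-/- libraries 717, 825, 689 and 1044. The genotypes did not overlap. Pmaip1 fell 1.43-fold in Pkd1-/- (log2 fold change -0.52, standard error 0.09, adjusted p = 0.00036 in limma) and 2.27-fold in Pkd2-/- (-1.18, standard error 0.09, adjusted p = 7.26e-09 in limma).

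Bmf, a BH3-only protein that responds to loss of cell attachment, held 2569, 2772, 2637 and 2747 normalized counts in Wt. It held 2021, 2029, 2088 and 1990 in Pkd1-/- and 1253, 1005, 1086 and 1217 in Pkd2-/-. Again no genotypes overlapped, and the Pkd2-/- libraries were lowest. Bmf fell 1.32-fold in Pkd1-/- (log2 fold change -0.40, standard error 0.06, adjusted p = 5.68e-05 in limma) and 2.36-fold in Pkd2-/- (-1.24, standard error 0.06, adjusted p = 7.79e-12 in limma).

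Bik, a BH3-only protein of the endoplasmic reticulum, was the scarcest of the class. The Wt libraries held 58, 47, 77 and 51 normalized counts, the Pkd1-/- libraries 8, 15, 16 and 10 and the Pkd2-/- libraries 28, 24, 23 and 22. All libraries of both mutants lay below Wt, and Pkd1-/- lay below Pkd2-/-. Bik fell by 2.18 on the log2 scale in Pkd1-/- (standard error 0.25, adjusted p = 1.67e-06 in limma) and by 1.21 in Pkd2-/- (standard error 0.25, adjusted p = 0.000563 in limma), and the mutants differed by 0.97 (adjusted p = 0.00316 in limma).

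The remaining BH3-only members were higher in at least 1 mutant. Bcl2l11 (BIM), which binds all anti-apoptotic relatives, spanned 1051 to 1506 normalized counts in Wt, 1468 to 1553 in Pkd1-/- and 2134 to 2441 in Pkd2-/-. It rose by 0.25 in Pkd1-/- (adjusted p = 0.0324 in limma), a call lost without Wt replicate 2 or 3 or Pkd1-/- replicate 1, 2 or 3 (adjusted p up to 0.126), and by 0.82 in Pkd2-/- (adjusted p = 1.52e-07 in limma). Bid, which links death receptors to mitochondria, gave 0.06 in Pkd1-/- (adjusted p = 0.499 in limma) and rose by 0.48 in Pkd2-/- (adjusted p = 9.95e-07 in limma). Bad, which is controlled by phosphorylation, rose by 0.27 in Pkd1-/- (adjusted p = 0.00551 in limma) and gave -0.04 in Pkd2-/- (adjusted p = 0.694 in limma). Genes on the opposite strand share 17.7% of the exon bases of Bid (Bcl2l13) and 20.5% of those of Bad (Gpr137).

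Of the 6 tested members among the caspases and Apaf1, 4 were called in Pkd1-/- and 5 in Pkd2-/-, all lower than Wt, where 13.5% and 22.3% of all tested genes were called lower. Of genes that averaged 100 or more, 37.0% and 59.3% were called in either direction. Apaf1, the scaffold of the apoptosome, had log2 fold changes of -0.20 in Pkd1-/- (adjusted p = 0.0468 in limma) and -0.37 in Pkd2-/- (adjusted p = 0.000289 in limma). The Pkd1-/- call of Apaf1 was lost in 8 of the 12 fits that left out 1 library, Wt replicates 1, 3 and 4, Pkd1-/- replicates 1, 3 and 4 and Pkd2-/- replicates 1 and 2 (adjusted p up to 0.136 in limma). Casp9, the caspase that the apoptosome activates, gave -0.10 in Pkd1-/- (adjusted p = 0.191 in limma) and fell by 0.41 in Pkd2-/- (adjusted p = 5.23e-06 in limma). Casp2, which the PIDDosome activates, fell by 0.23 and 0.25 (adjusted p = 0.000755 and 0.000191 in limma).

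Casp6, an executioner caspase, held 1564, 1740, 1559 and 1533 normalized counts in Wt. It held 1391, 1358, 1345 and 1331 in Pkd1-/- and 741, 706, 802 and 739 in Pkd2-/-. The genotypes did not overlap, with Pkd2-/- lowest. Casp6 fell 1.18-fold in Pkd1-/- (log2 fold change -0.24, standard error 0.06, adjusted p = 0.00328 in limma) and 2.14-fold in Pkd2-/- (-1.10, standard error 0.06, adjusted p = 1.08e-11 in limma). Casp8, the initiator at death receptors, spanned 2180 to 2226 normalized counts in Wt, 2235 to 2538 in Pkd1-/- and 2059 to 2177 in Pkd2-/-, and was called only between the mutants (-0.16, adjusted p = 0.0108 in limma).

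Casp4, an inflammatory caspase that senses cytosolic lipopolysaccharide, held 106, 87, 87 and 110 normalized counts in Wt. It held 12, 16, 16 and 14 in Pkd1-/- and 25, 19, 20 and 23 in Pkd2-/-. Every mutant library lay below every Wt library. Casp4 fell 6.36-fold in Pkd1-/- (log2 fold change -2.67, standard error 0.20, adjusted p = 5.17e-09 in limma) and 4.33-fold in Pkd2-/- (-2.11, standard error 0.20, adjusted p = 5.69e-08 in limma). The mutants differed by 0.55 (adjusted p = 0.0267 in limma), a call lost without Pkd1-/- replicate 1 or Pkd2-/- replicate 1 or 4 (adjusted p up to 0.0751 in limma). This call was also lost with voom weights (adjusted p = 0.0905), without the filter on low values (0.0598) and with only the 2 genotypes compared (0.0565, all in limma).

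Casp4 lies on chromosome 9 (GRCm38 chr9:5308828-5336783, plus strand) among other caspases, and its neighbours within 3 Mb, a window chosen after the values were seen, included 16 genes that averaged 10 normalized counts or more, itself among them. Casp12, which starts 36.6 kb further on, averaged 158 normalized counts in Wt, 11.8 in Pkd1-/- and 12.8 in Pkd2-/-. Pdgfd, a growth factor gene 860 kb further on, averaged 327, 14.3 and 34.5. Their log2 fold changes were -3.74 and -3.64 for Casp12 and -4.43 and -3.24 for Pdgfd, each with an adjusted p of at most 2.51e-07 in limma. The nearest expressed genes on either side of this stretch differed little, with -0.14 and -0.02 for Msantd4 and 0.02 and 0.27 for Dync2h1. Birc2, also a member, lies 2509 kb away and fell by 0.28 and 0.27.

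**Figure D5:**
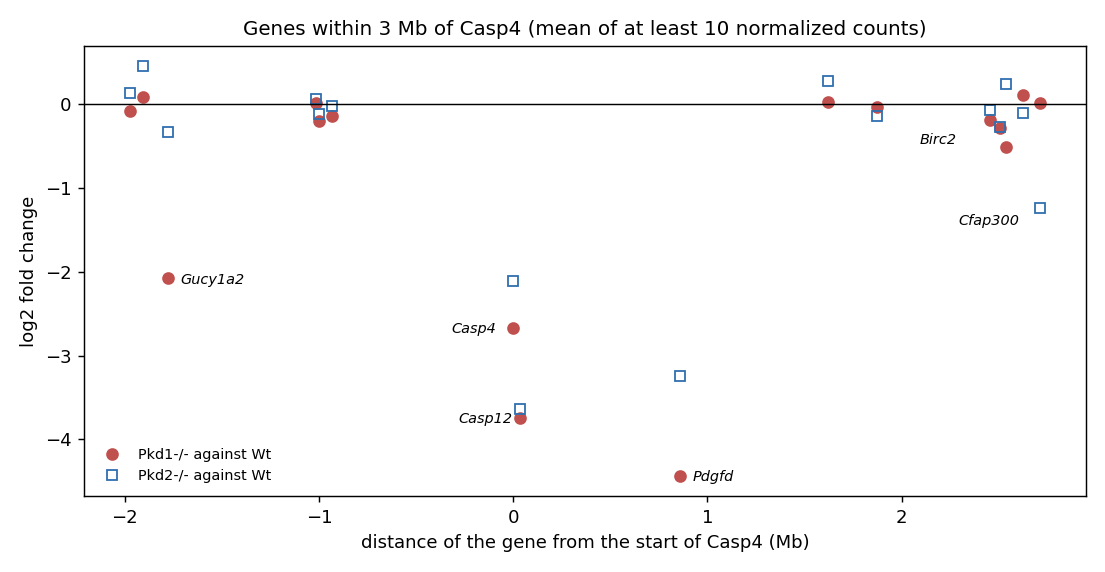
Log2 fold change against Wt (vertical axis) of the 16 genes within 3 Mb of Casp4 that averaged 10 normalized counts or more, by the distance of their start from that of Casp4 in Mb (red circles, Pkd1-/-; blue squares, Pkd2-/-). Casp4, Casp12 and Pdgfd lay below -2 in each mutant, Gucy1a2 fell in Pkd1-/- and Cfap300 in Pkd2-/-, and the others lay between -0.50 (Birc3 in Pkd1-/-) and 0.45 (Cwf19l2 in Pkd2-/-).

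Signals from outside the cell were represented by a ligand and its receptors. Tnfsf10 (TRAIL), a death ligand, held 42, 45, 45 and 65 normalized counts in Wt. It held 35, 26, 29 and 21 in Pkd1-/- and 18, 24, 22 and 31 in Pkd2-/-. All mutant libraries lay below Wt, and the mutants overlapped. Tnfsf10 fell by 0.81 on the log2 scale in Pkd1-/- (standard error 0.23, adjusted p = 0.0126 in limma), a call lost without Wt replicate 4, which held 65 (-0.67, adjusted p = 0.0546 in limma), and by 1.03 in Pkd2-/- (standard error 0.23, adjusted p = 0.00123 in limma). Its receptor Tnfrsf10b was called only between the mutants (-0.18, adjusted p = 0.0294 in limma), a call lost without Pkd1-/- replicate 2 or 3 or Pkd2-/- replicate 1 or 3 (adjusted p up to 0.102). The death receptor Fas, a p53 target, held 5 to 24 normalized counts per library and was not called in any comparison, with 95% intervals of the log2 difference from Wt of -1.13 to 0.60 and -1.57 to 0.16, which leave room for changes in either direction.

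Of the 3 inhibitor of apoptosis proteins and antagonist, 2 were called lower in each mutant, where 13.5% and 22.3% of all tested genes were called lower. Between the mutants 0 were called, against 46.3% of all tested genes. Of genes that averaged 100 or more, 37.0%, 59.3% and 63.2% were called in these comparisons, in either direction. Birc2 (cIAP1), a ubiquitin ligase, spanned 1193 to 1320 normalized counts in Wt, 965 to 1094 in Pkd1-/- and 1019 to 1083 in Pkd2-/-, and fell by 0.28 and 0.27 on the log2 scale (adjusted p = 0.00093 and 0.000761 in limma). Diablo (SMAC), the mitochondrial protein that neutralizes them, spanned 1889 to 2011, 1430 to 1547 and 1262 to 1461, and fell by 0.39 and 0.49 (adjusted p = 1.21e-05 and 3.17e-07 in limma). Xiap, the direct caspase inhibitor, was not called in any comparison, with log2 fold changes of -0.13 and -0.16. Other genes share 21.5% (B3gnt4, opposite strand) and 19.4% (Gm49027, same strand) of the exon bases of Diablo. Of the relatives outside the members, Birc3 (cIAP2) fell by 0.50 in Pkd1-/- (adjusted p = 0.000259 in limma) and rose by 0.24 in Pkd2-/- (adjusted p = 0.0345 in limma). Birc6 gave 0.04 in Pkd1-/- and rose by 0.52 in Pkd2-/- (adjusted p = 0.00102 in limma). Birc5 went the other way in Pkd2-/-. With a replicate block in the fit, it rose by 0.14 in Pkd1-/- (adjusted p = 0.0351 in limma) and fell by 0.44 in Pkd2-/- (adjusted p = 3.05e-07 in limma). Without the block, leaving out 1 library gave adjusted p up to 0.126 in limma for Birc5 in Pkd1-/-. The values of Birc3 and Birc6 are from the fit without the block.

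Further genes of the pathway were taken from a list of 53, of which 52 were tested. Trp53i11 passed the minimum mean only through Wt and had to differ in order to be tested. It is counted among the genes lower in each mutant, and its calls are not a result. In Pkd1-/- 21 of the 52 were called, 9 higher and 12 lower, in Pkd2-/- 36, 19 higher and 17 lower, and between the mutants 36, 17 higher and 19 lower in Pkd2-/-. These were 40.4%, 69.2% and 69.2% of the list, against 27.1%, 42.3% and 46.3% of all tested genes and 37.0%, 59.3% and 63.2% of those that averaged 100 or more. Among them Gdf15, a secreted stress cytokine and p53 target, averaged 139 ± 24.4 normalized counts in Wt, 71.3 ± 12.7 in Pkd1-/- and 1397 ± 206 in Pkd2-/- (SD, n = 4). Gdf15 rose 10.03-fold in Pkd2-/- (adjusted p = 1.41e-12 in limma) and fell 1.94-fold in Pkd1-/- (adjusted p = 5.37e-05 in limma). Sesn2, a relative of Sesn1, had the same order as Gadd45a and Gdf15, at 0.501 times the Wt level in Pkd1-/- and 0.38 higher on the log2 scale in Pkd2-/- (adjusted p = 1.41e-10 and 2.52e-05 in limma). Btg2, an antiproliferative target, rose by 1.38 in Pkd2-/- (adjusted p = 7.83e-07 in limma) and gave 0.17 in Pkd1-/- (adjusted p = 0.485 in limma).

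Tnfrsf21 (DR6), a death receptor, had log2 fold changes of -1.89 in Pkd1-/- and -3.54 in Pkd2-/- (adjusted p = 5.62e-06 and 5.67e-10 in limma). Bnip3, a mitophagy receptor related to the BCL2 family, rose 1.24-fold in Pkd1-/- (adjusted p = 0.00762 in limma) and fell 2.00-fold in Pkd2-/- (adjusted p = 8.51e-09 in limma). Trp53i11 averaged 18.5 normalized counts in Wt and held at most 1 in any mutant library, at least 6.17-fold lower than Wt against a floor of 3 counts per library. It passed the minimum mean only through Wt, and no p-value is given for it.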

How the data were processed

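Per the study's methods and processing notes, the authors used Trim Galore for trimming, HISAT2 for alignment to mm10, HTSeq for counts per Ensembl gene and DESeq2 for size factors. Their deposited score values are the resulting normalized counts, rounded to whole numbers. They are not read counts, and reads could be recovered for 5 of 12 libraries and not for 7, so that the test planned for read counts was not used. All sample columns were used, leaving 0 unused, and no pair of libraries was identical (0 pairs). Symbols, positions and exon lengths came from GENCODE release M21 (GRCm38), which held 47223 of the identifiers and not 419.

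Genotypes were compared with limma 3.58.1 in R 4.3.3 (lmFit and eBayes with a variance trend) on log2(value + 1), over 18552 genes that averaged 1 or more, in 1 model of 12 libraries. Tests were two-sided, with Benjamini-Hochberg adjustment in each of 3 comparisons. An exact permutation test, also two-sided, has 70 splits of 4 against 4 libraries and cannot give less than 0.0286, the value it gave wherever the ranges of 2 genotypes did not overlap. Intervals and floors cover counting error or the spread between dishes, not clones. The fit was tested on simulated data. The replicate numbers of the labels were not used as pairs in the main fit. Of 12 pairs with the same number, 2 had deviations correlated above 0.1 (range -0.073 to 0.20). Both were pairs of replicate 4, at 0.20 and 0.167, where pairs with different numbers reached at most 0.114. Whether replicate 4 shares a source was not tested. Alternatives were other pseudocounts, filters, samples, scaling and weights, a replicate block, and each library left out.

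The members and lists were chosen with earlier results of these data known. Values in every library are given for Trp53, Mdm2, Cdkn1a, Bax, Bcl2 and Bbc3, for members past a log2 fold change of 1 and for the 5 largest changes per comparison. Other pathway genes were named past the same fold change, and Birc3, Birc5 and Birc6 as relatives of Birc2 and Xiap.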

Additional observations from a re-analysis of the deposited data

Results flagged for a closer look

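Among 48 groups of 4 libraries of the 16 members given by library, 5 held 1 library that stood apart from the other 3 by Dixon's test. By chance this test picks out about 1 in 20 groups of continuous values. That rate does not hold for whole counts near 0, where any single library above 0 stands apart. Eda2r accounted for 3 of them. Its Wt replicate 3 held 2 normalized counts where the others held 0, its Pkd2-/- replicate 1 held 2 where the others held 0, and its Pkd1-/- replicate 2 held 2 where the others held 13 to 15. Casp6 held 1740 in Wt replicate 2 and 1533 to 1564 in the other Wt libraries. Tnfsf10 held 65 in Wt replicate 4 and 42 to 45 in the others.

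For 4 members the mutants were called in opposite directions from Wt. The share of all tested genes called in this way is not given here, so that this number has no background to be read against. Calls in opposite directions by themselves set the mutants apart, so that the test between the mutants adds no support for these members. The log2 difference of Pkd2-/- from Pkd1-/- was -4.46 for Trp63, 1.43 for Gadd45a, 0.43 for Bcl2l1 and 0.78 for Bok. The libraries of the mutants did not overlap for any of these members, nor for 41.8% of all tested genes.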

How the results depend on the processing

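Across all alternatives the counts of members called stayed within 1.5 times the values given. Leaving out 1 library gave 22 to 28 in Pkd1-/- against Wt, 25 to 30 in Pkd2-/- against Wt and 26 to 29 between the mutants, and the other settings 25 to 30, 27 to 29 and 27 to 31. Past the fold threshold the ranges over all settings were 3 to 4, 7 to 8 and 3 to 5. Of 957 alternative values for the 48 comparisons of members given by library, 923 kept their side of the threshold, 30 no longer passed and 4 newly passed. Among those called, 0 changed direction. Values that were not called could change sign, as for Bax between the mutants (-0.087 to 0.003 with 1 library left out). The changes fell in 9 results, those of Trp53, Mdm2, Cdkn1a, Bax, Bbc3, Casp4 and Tnfsf10 described above, and the cause was not tested. With the replicate block, Bbc3 (-0.27, adjusted p = 0.0493 in limma), Gadd45g and Plk2 were also called in Pkd1-/-, which made 30, and no call was lost. The block added Xiap in Pkd2-/- and Gadd45b and Apaf1 between the mutants. Replicate numbers share no source in the labels, and a library correlated best with its own number in 9 of 24 cases. Leaving out 1 library also added calls of Plk2 and Tnfrsf10b in Pkd1-/-, of Phlda3, Xiap and Gadd45b in Pkd2-/-, and of Perp and Apaf1 between the mutants. Eda2r, Fas and Trp63, with few normalized counts in at least 1 genotype, are limited by depth.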
